A study of Homo sapiens with 12 samples.

Results

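Rosiglitazone (RGZ) activates the nuclear receptor PPARγ, and T0070907 blocks it. The data described here are the interaction of both compounds, that is, how far the effect of RGZ on each gene differed between cells that also received T0070907 and cells that did not. For each gene and each of the 3 experiments, the log2 change from T0070907 to RGZ+T0070907 was taken and the log2 change from vehicle to RGZ was subtracted from it. This difference was computed from all 12 of the 12 libraries for the 23705 genes of the count table, of which 13522 had enough counts to be tested.

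The libraries came from A375, a human metastatic melanoma cell line grown in culture. Cells received the DMSO vehicle, 5 μM RGZ, 2 μM T0070907, or 5 μM RGZ with 2 μM T0070907, each for 24 h, and all of them, controls included, carried the DMSO in which the compounds were dissolved. Each condition was sequenced once in each of 3 independent experiments, and each library held the pooled RNA of the technical replicates of 1 condition of that experiment. One cell line at 1 dose of each compound and 1 time point limits what the contrast can describe. Library totals ranged from 8319455 to 11375227 counts. The lineage gene *SOX10* averaged between 282 and 334 CPM (TMM-scaled counts relative to the library total, scaled to the same total in every library) and *MITF* between 36.4 and 49.2 CPM across the conditions, whereas the pigmentation gene *TYR* was at 0 in every library and *MLANA* reached at most 6 counts, so the label melanoma rests here on the lineage genes and not on the pigment genes. Of the 10 melanocyte markers 2 stayed at or under 3 counts. The same was true of 3 of 6 leukocyte markers, 4 of 6 adipocyte markers, 2 of 6 epithelial markers, 1 of 6 endothelial markers and 0 of 8 fibroblast markers. The summed level of the fibroblast markers ranged from 26.4 to 57.0 CPM in vehicle, from 17.5 to 36.1 CPM in RGZ, from 32.7 to 62.8 CPM in T0070907 and from 21.0 to 45.9 CPM in the combination. The endothelial sum ranged from 6.59 to 8.83 CPM in vehicle and, without overlap, from 3.22 to 6.09 CPM in RGZ, then from 6.70 to 11.3 CPM in T0070907 and from 4.57 to 7.50 CPM in the combination. The leukocyte sum ranged from 47.8 to 80.2, 59.4 to 103.9, 42.3 to 73.3 and 49.3 to 76.5 CPM in the same order, and the adipocyte sum from 3.63 to 5.24, 4.06 to 14.7, 3.47 to 4.12 and 3.75 to 4.42 CPM. The epithelial sum ranged from 88.1 to 114, 86.3 to 99.2, 91.9 to 117 and 94.7 to 119.6 CPM. The part of these markers in the results was not tested.

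PPARγ binds DNA as a heterodimer with the retinoid X receptor and is best known for driving fat cell differentiation and lipid storage. An agonist turns on target genes such as those of lipid droplet proteins and fatty acid oxidation enzymes, while an antagonist occupies the ligand pocket and keeps agonists from acting. On a log2 scale, additivity means that RGZ changes a gene by the same factor with and without T0070907, even where T0070907 moves the starting level. A difference other than 0 means that the factor itself changed.

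The effect of RGZ differed with T0070907 in 38 of 13522 tested genes (0.281%) at a Benjamini-Hochberg adjusted p under 0.05, by edgeR's quasi-likelihood test with the experiment as a block. The difference was positive in 15 genes (0.111%) and negative in 23 genes (0.170%). In the positive genes, led by the matrix cross-linking enzyme gene *LOXL4*, RGZ lowered the level in cells without T0070907, and the effect in cells with T0070907 was nearer to 0 or above it. In the negative genes, led by the laminin gene *LAMA4* and the lipid droplet gene *PLIN2*, RGZ raised the level, and the effect with T0070907 was nearer to 0 or below it. The 38 genes are called dependent genes from here on. All 38 genes had the same sign in the 3 experiments. The test that chose them used these same values, so nothing is read from this. The unadjusted p was under 0.05 for 1324 genes (9.79%). Without the block for the experiment the same test called 0 genes, with every adjusted p at 0.999841 and an unadjusted p under 0.05 for 406 genes (3.00%). The count also moved by over 1.5 times when 11 of the 12 libraries were left out one at a time, to between 1 and 149 genes, the exception being the combination library of experiment 3, without which 39 genes were called. *LOXL4* alone was called whichever library was left out, followed by *LAMA4* in 9 and *FERMT1* in 8 of the 12 cases. By contrast, 32 of the 38 genes were called in fewer than 6 of the 12 cases.

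**Figure D1:**
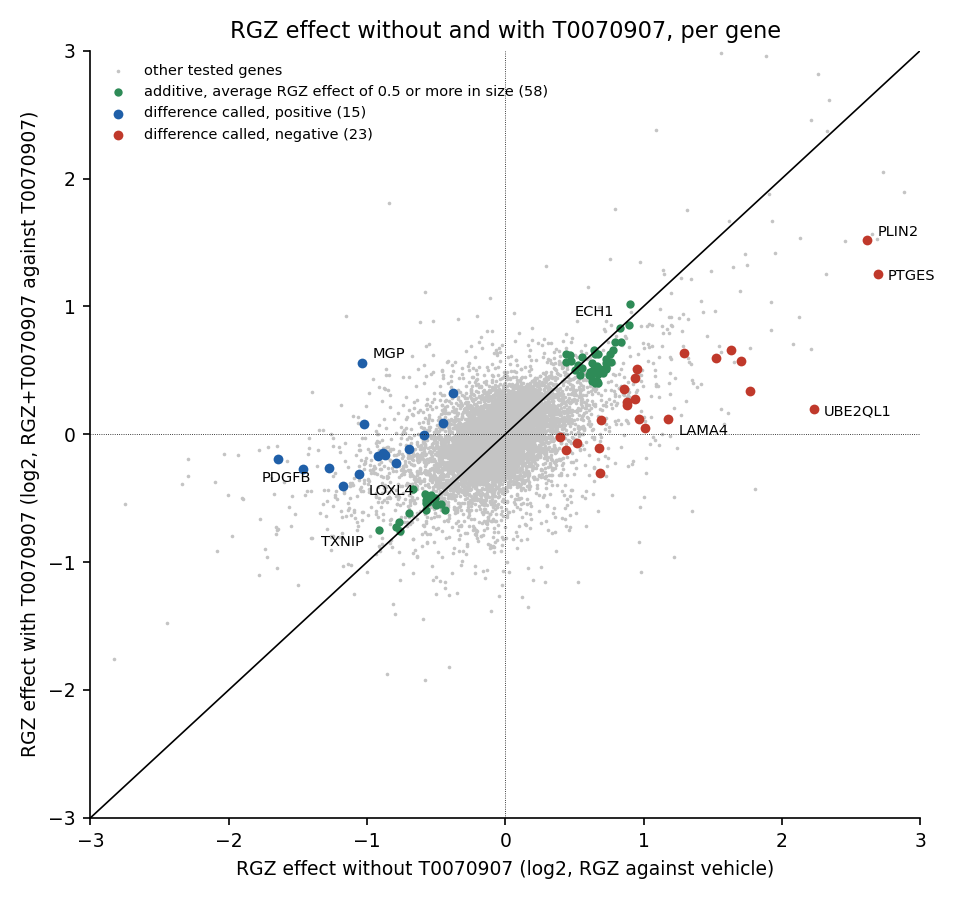
RGZ effect per gene in cells without T0070907 (x axis, log2 change of RGZ against vehicle) and with T0070907 (y axis, log2 change of RGZ+T0070907 against T0070907). Each point is 1 tested gene, the diagonal marks an equal effect, and 14 genes beyond 3 on either axis are not shown. The 23 genes with a negative difference lie to the right of the diagonal, the 15 with a positive difference to its left, and the 58 larger additive genes follow it.

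The single effects of the 38 genes are given as a description. The effects of RGZ without and with T0070907, and likewise those of T0070907 without and with RGZ, are the terms of the difference that chose the genes. Nothing is read from their counts beside the background. RGZ alone changed all 38 (background 1258 of 13522 genes, 9.30%), downward in the 15 positive genes (background 4.35%) and upward in the 23 negative ones (background 4.95%). With T0070907 present, RGZ changed 12 of them (background 1185 genes, 8.76%), among them the positive genes *LOXL4* and *EFEMP1* downward (background 4.22%) and 9 negative genes upward (background 4.55%). T0070907 changed all 38 in the presence of RGZ (background 1545 genes, 11.4%), the 15 positive genes upward (background 5.55%) and the 23 negative genes downward (background 5.88%). T0070907 without RGZ changed 7 of them (background 123 genes, 0.910%), namely *LOXL4*, *EFEMP1*, *PLIN2*, *GDE1*, *ITGA2*, *ACSL3* and *SERINC2*. The RGZ effect of the positive genes had a median of -0.92 without and -0.17 with T0070907 on the log2 scale, and that of the negative genes a median of 0.95 without and 0.25 with it. In 9 genes the fitted RGZ effect had the other sign with T0070907.

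Just inside the threshold were *PDGFB* with 1.45 ± 0.30 (SE, adjusted p = 0.0467), *SERINC2* with -0.50 ± 0.10 (SE, adjusted p = 0.0473) and *KIAA0040* with -0.78 ± 0.16 (SE, adjusted p = 0.0473). Just outside were *PLEKHA4* with a difference of 0.64 ± 0.13 (SE, adjusted p = 0.0515), *MALT1* with 0.44 ± 0.09 (SE, adjusted p = 0.0523) and *ST3GAL1* with -0.69 ± 0.14 (SE, adjusted p = 0.0523).

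**Figure D2:**
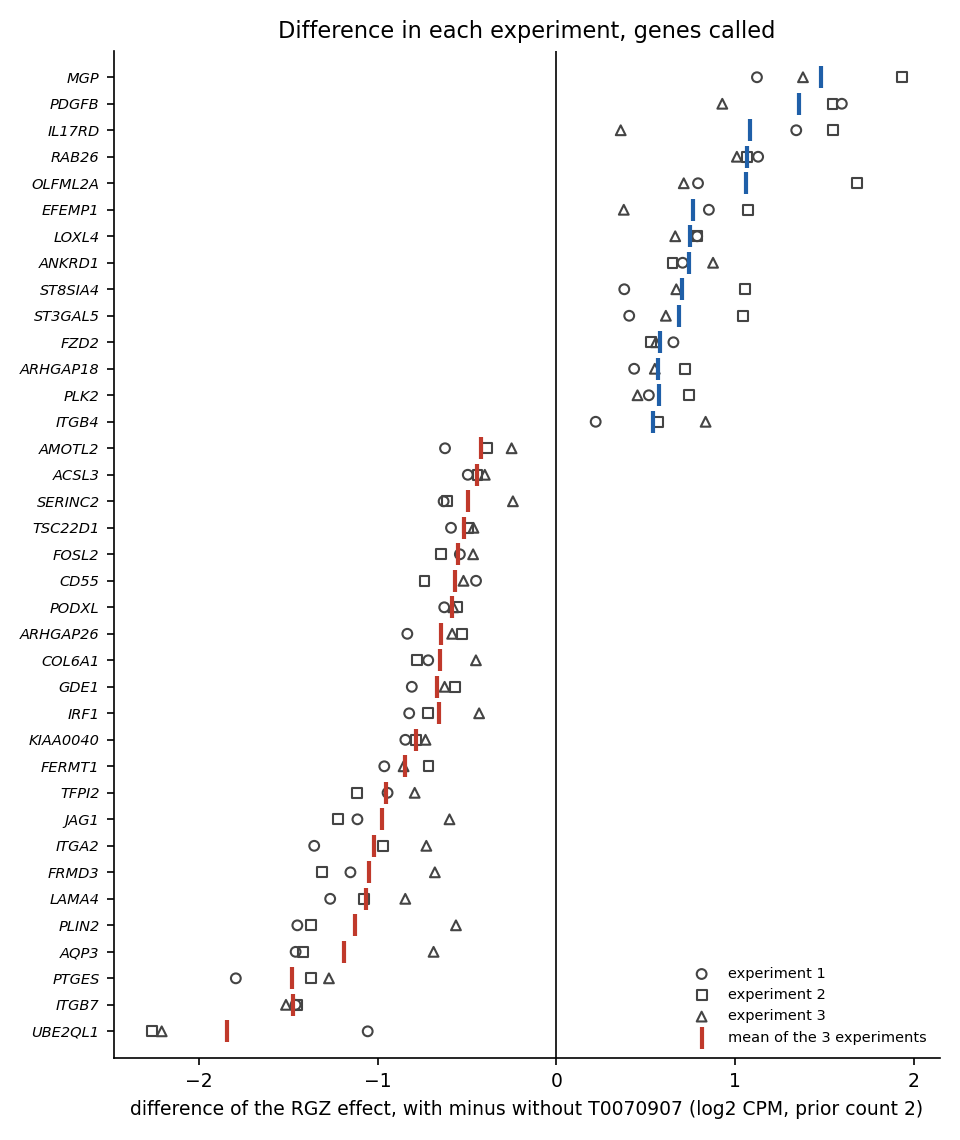
Difference of the RGZ effect (x axis, log2 CPM with a prior count of 2, with minus without T0070907) of 37 of the 38 genes called, in experiment 1, 2 and 3 (open symbols) and as their mean (bars, blue for positive and red for negative). None of the genes shown crosses 0 in any experiment, but these values also chose the genes. The spread between experiments is widest in *UBE2QL1* and *IL17RD*.

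Promoter sequence was looked at for the dependent genes and for the larger additive genes described further on. RefSeq windows of 250 bases before the start of transcription (build GRCh38.p14; the counts themselves were made on hg19) were matched for 27 of the 38 dependent genes with 45 windows, for 43 of the 58 larger additive genes with 73 windows, and for 10758 of 13522 tested genes with 15706 windows. The half-site of PPARγ and other nuclear receptors, the letters AGGTCA on either strand, was in 2.22% of the windows of dependent genes, in 6.85% of those of larger additive genes and in 8.87% of all windows. The direct repeat AGGTCANAGGTCA was in 0% of either group and in 0.0191% of all windows. The AP-1 letters TGANTCA were in 6.67%, 9.59% and 4.61% of these windows, and the TEAD letters GGAATG in 8.89%, 5.48% and 9.86%. Shown are the windows with a half-site that overlap no annotated exon, 1 of a dependent gene (*FRMD3*, chr9:83331962-83332211, minus strand) and 2 of additive genes (*SERPINE2*, chr2:224031479-224031728, minus strand, and *HPCAL1*, chr2:10329913-10330162, plus strand), each 5′ to 3′ on the strand of its gene with the half-site in capitals, which in *HPCAL1* reads as its reverse complement.
FRMD3: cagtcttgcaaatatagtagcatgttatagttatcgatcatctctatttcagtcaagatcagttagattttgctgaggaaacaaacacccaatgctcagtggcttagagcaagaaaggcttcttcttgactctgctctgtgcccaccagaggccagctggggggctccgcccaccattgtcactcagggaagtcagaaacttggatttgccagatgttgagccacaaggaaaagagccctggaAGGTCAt
SERPINE2: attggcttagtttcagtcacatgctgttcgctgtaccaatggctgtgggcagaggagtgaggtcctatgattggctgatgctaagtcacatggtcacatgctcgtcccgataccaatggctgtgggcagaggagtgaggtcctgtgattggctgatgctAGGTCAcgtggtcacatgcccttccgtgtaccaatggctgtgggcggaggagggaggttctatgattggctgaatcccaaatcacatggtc
HPCAL1: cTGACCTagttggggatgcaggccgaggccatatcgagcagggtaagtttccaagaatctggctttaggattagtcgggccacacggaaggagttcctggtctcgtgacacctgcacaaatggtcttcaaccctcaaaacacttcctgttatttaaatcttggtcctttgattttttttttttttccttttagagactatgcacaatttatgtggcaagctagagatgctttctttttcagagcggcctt
A match of 6 letters is a description of the window and not a binding site.

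Among the genes that RGZ raised less in the presence of T0070907, the smallest p belonged to *LAMA4*, which encodes a laminin chain of basement membranes. In experiments 1, 2 and 3, *LAMA4* was at 61.5, 62.8 and 90.5 CPM in vehicle, 130.0, 168 and 183 CPM in RGZ, 58.8, 56.9 and 101 CPM in T0070907, and 51.5, 72.3 and 114 CPM in the combination. Every RGZ library lay above the vehicle libraries, while the combination overlapped both T0070907 and vehicle. The RGZ effect was 1.18 without and 0.12 with T0070907, and the difference was -1.05 ± 0.16 (SE, adjusted p = 0.0242). *COL6A1*, an alpha chain of collagen VI, was at 111, 105 and 136 CPM in vehicle, 198, 218 and 230.4 CPM in RGZ, 117, 90.3 and 120.4 CPM in T0070907, and 127, 109 and 149 CPM in the combination. Its RGZ libraries stood apart from all others, and the difference was -0.65 ± 0.11 (SE, adjusted p = 0.0336). *FERMT1*, which encodes a kindlin that activates integrins, was at 58.02, 64.97 and 47.8 CPM in vehicle, 101, 117 and 113 CPM in RGZ, 49.7, 54.5 and 37.3 CPM in T0070907, and 44.5, 59.6 and 48.8 CPM in the combination. RGZ was above every other library here too, with a difference of -0.84 ± 0.14 (SE, adjusted p = 0.0301).

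*PLIN2* encodes a coat protein of lipid droplets and is a PPAR target. It was at 365, 389 and 405 CPM in vehicle, 2097, 2547 and 2477 CPM in RGZ, 172, 179 and 178 CPM in T0070907, and 362, 454 and 737 CPM in the combination. The 4 conditions differed in *PLIN2* in the order RGZ, then vehicle or combination, then T0070907, and the T0070907 libraries were below every other. RGZ raised it by 2.62 without and by 1.52 with T0070907 on the log2 scale, so that it responded in both settings and the difference was -1.10 ± 0.18 (SE, adjusted p = 0.0301). The experiments gave -1.45, -1.37 and -0.56, the last being the smallest in size, and *PLIN2* was called in 6 of the 12 cases with a library left out. *PTGES*, the inducible prostaglandin E synthase, was at 11.8, 24.6 and 14.8 CPM in vehicle, 65.2, 189 and 89.02 CPM in RGZ, 8.66, 9.94 and 9.74 CPM in T0070907, and 13.7, 29.7 and 24.2 CPM in the combination. Its RGZ libraries were above all others and its T0070907 libraries below all others, with an RGZ effect of 2.69 without and 1.26 with T0070907 and a difference of -1.44 ± 0.26 (SE, adjusted p = 0.0336).

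*UBE2QL1*, a gene of the ubiquitin-conjugating enzyme family, had the most negative of the 38 differences, with -2.03 ± 0.36 (SE, adjusted p = 0.0336), at low levels. It was at 1.48, 2.26 and 1.18 CPM in vehicle, 4.89, 12.6 and 6.09 CPM in RGZ, 1.04, 2.24 and 1.21 CPM in T0070907, and 1.61, 2.42 and 1.18 CPM in the combination. RGZ was above all other libraries, which overlapped one another. *TSC22D1*, a leucine zipper regulator first described as responsive to transforming growth factor beta, was at 123, 133 and 144 CPM in vehicle, 219, 226 and 284 CPM in RGZ, 107, 104 and 123 CPM in T0070907, and 126, 126 and 176 CPM in the combination. Its RGZ libraries were above all others and the difference was -0.51 ± 0.09 (SE, adjusted p = 0.0348). *PODXL*, a sialomucin of the cell surface, was at 95.2, 146 and 70.02 CPM in vehicle, 129.5, 231 and 94.6 CPM in RGZ, 98.8, 137 and 76.00 CPM in T0070907, and 86.96, 148 and 68.8 CPM in the combination. Here the conditions overlapped across experiments, since experiment 2 was high in every condition, while within each experiment RGZ was the highest library and the difference was -0.59 ± 0.10 (SE, adjusted p = 0.0336).

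Among the genes that RGZ lowered less in the presence of T0070907, *LOXL4*, a lysyl oxidase family enzyme that cross-links collagen and elastin, was at 165, 207 and 247 CPM in vehicle, 76.9, 103 and 117 CPM in RGZ, 216, 285 and 376 CPM in T0070907, and 174, 245 and 284 CPM in the combination. The RGZ libraries were below all others. The RGZ effect was -1.06 without and -0.31 with T0070907, and T0070907 by itself raised *LOXL4* by 0.49 (adjusted p = 0.000196). The difference was 0.75 ± 0.08 (SE, adjusted p = 0.000594), with 0.79, 0.79 and 0.67 in the experiments. *OLFML2A*, an extracellular olfactomedin domain protein, was at 18.4, 17.3 and 25.2 CPM in vehicle, 8.32, 5.02 and 11.8 CPM in RGZ, 22.8, 16.7 and 25.7 CPM in T0070907, and 18.04, 16.1 and 19.8 CPM in the combination. The RGZ libraries were again the lowest, and the difference was 1.01 ± 0.18 (SE, adjusted p = 0.0336). *ANKRD1*, a target of the Hippo pathway effectors YAP and TAZ, was at 39.97, 28.1 and 29.2 CPM in vehicle, 20.9, 13.9 and 16.4 CPM in RGZ, 36.6, 29.5 and 25.9 CPM in T0070907, and 31.4, 23.1 and 27.00 CPM in the combination. RGZ was below every other library, the other conditions overlapped, and the difference was 0.75 ± 0.13 (SE, adjusted p = 0.0336).

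The other positive genes shown by library belong to signalling and transport. *IL17RD*, an inhibitor of fibroblast growth factor and MAPK signalling, was at 8.29, 18.4 and 7.88 CPM in vehicle, 2.599, 5.82 and 3.96 CPM in RGZ, 10.1, 20.2 and 11.3 CPM in T0070907, and 8.400, 19.1 and 7.39 CPM in the combination. RGZ was below all other libraries, and the difference of 1.19 ± 0.21 (SE, adjusted p = 0.0336) was 0.36 in experiment 3 against 1.34 and 1.55 in the others. *FZD2*, a Wnt receptor, was at 43.6, 50.9 and 33.7 CPM in vehicle, 30.8, 33.3 and 21.3 CPM in RGZ, 46.6, 56.7 and 38.5 CPM in T0070907, and 51.9, 53.7 and 36.01 CPM in the combination. Its RGZ libraries were below all others and the difference was 0.58 ± 0.11 (SE, adjusted p = 0.0348).

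*RAB26*, a small GTPase of vesicle transport, was at 5.56, 13.1 and 6.001 CPM in vehicle, 2.703, 6.51 and 2.94 CPM in RGZ, 6.35, 14.5 and 7.32 CPM in T0070907, and 7.04, 15.4 and 7.501 CPM in the combination. The vehicle and RGZ ranges overlapped because experiment 2 was high throughout, while within each experiment RGZ was lowest, and the difference was 1.10 ± 0.19 (SE, adjusted p = 0.0336). *PLK2*, a polo-like kinase, was at 217, 188 and 167 CPM in vehicle, 141, 92.8 and 98.5 CPM in RGZ, 220.4, 205 and 178 CPM in T0070907, and 205, 169.5 and 144 CPM in the combination. RGZ was below every other library, with a difference of 0.56 ± 0.10 (SE, adjusted p = 0.0348).

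**Figure D3:**
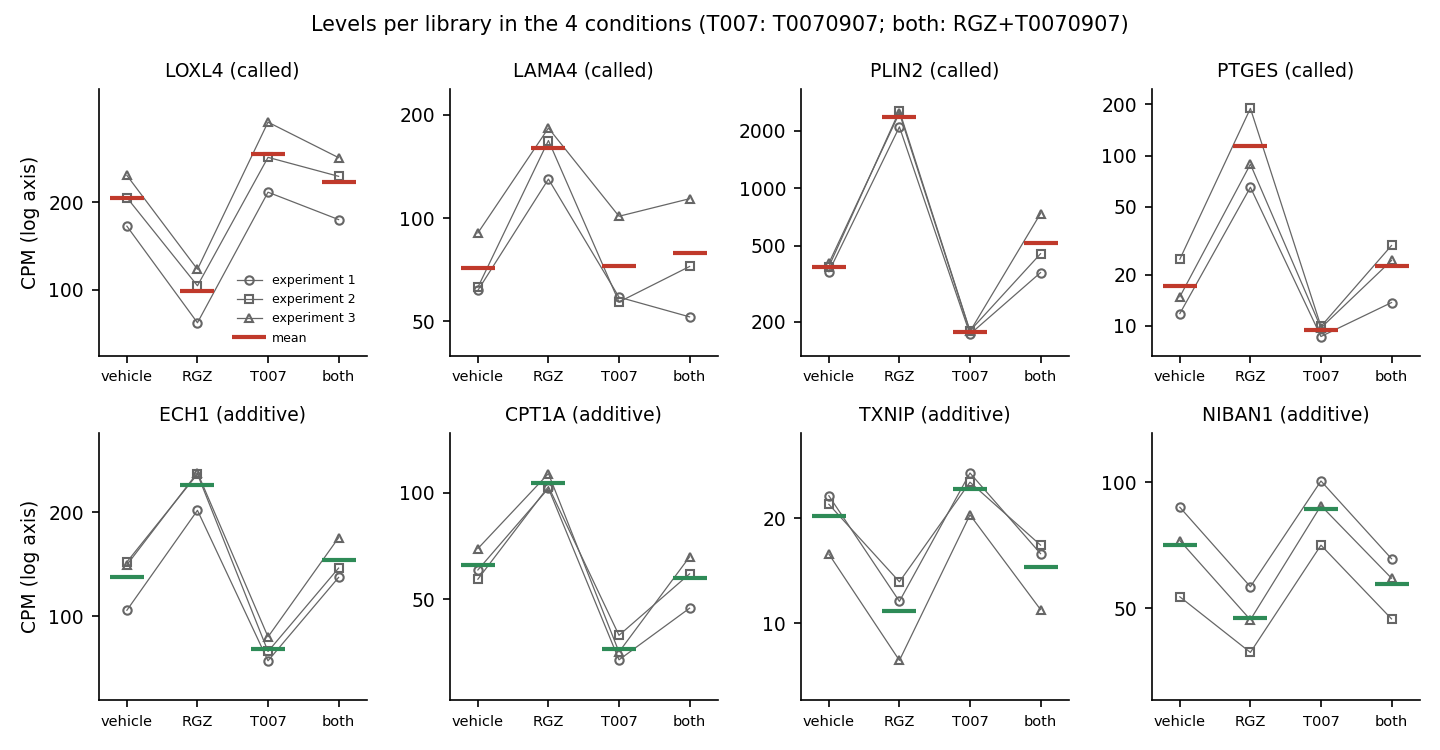
Level per library (y axes, CPM on a log axis) in vehicle, RGZ, T0070907 (T007) and RGZ+T0070907 (both) for 4 genes with a called difference (top row) and 4 additive genes (bottom row); symbols joined by lines are the 3 experiments and horizontal bars the means. In the top row the step from T007 to both is smaller than the step from vehicle to RGZ, and in the bottom row both steps are of like size.

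Several of the remaining dependent genes act in cell adhesion and extracellular matrix. Integrins are heterodimeric receptors for matrix, and 3 of 17 tested integrin genes were called (0.281% of all tested genes), *ITGB7* with -1.44 ± 0.27 (SE, adjusted p = 0.0374), *ITGA2* with -0.97 ± 0.19 (SE, adjusted p = 0.0452) and, in the other direction, *ITGB4* with 0.54 ± 0.11 (SE, adjusted p = 0.0447). An unadjusted p under 0.05 was found for 9 of the 17 integrin genes, beside 9.79% of all genes, and the median difference over the 17 was -0.19, beside 0.01 over all tested genes. *ITGA2*, the collagen receptor chain, averaged 37.8, 118, 21.6 and 33.8 CPM in vehicle, RGZ, T0070907 and the combination, and *ITGB4*, which pairs with ITGA6 to bind laminin, was at 46.1, 157 and 35.4 CPM in vehicle, 36.2, 117 and 23.04 CPM in RGZ, 46.4, 140.2 and 28.95 CPM in T0070907, and 42.5, 155 and 33.8 CPM in the combination. Experiment 2 was high in *ITGB4* in every condition and within each experiment RGZ was lowest. The call for *ITGB4* held in 2 of the 12 cases with a library left out. The other laminin-binding chains *ITGA3* (-0.41, adjusted p = 0.0811) and *ITGA6* (-0.47, adjusted p = 0.113) did not pass. Of 28 tested genes of collagens, laminins and other matrix, *LAMA4* and *COL6A1* were called, and the partner chains *COL6A2* (-0.51, adjusted p = 0.126) and *COL6A3* (-0.87, adjusted p = 0.196) did not pass. An unadjusted p under 0.05 was found in 10 of the 28 (background 9.79%), and the median difference over the list was -0.01. Of 23 tested matrix proteases and inhibitors edgeR called 0, with an unadjusted p under 0.05 in 3. Called genes with a product in the matrix that are in none of these lists, grouped after their values were seen, were *EFEMP1*, which encodes a fibulin, with 0.77 ± 0.15 (SE, adjusted p = 0.0374), *MGP*, an inhibitor of calcification, with 1.59 ± 0.32 (SE, adjusted p = 0.0452), and *TFPI2*, a Kunitz-type protease inhibitor, with -0.93 ± 0.19 (SE, adjusted p = 0.0452).

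The called genes also held 4 that take part in the handling of fatty acids and glycerolipids, grouped after their values were seen, all with a negative difference. They come from lists with 1 called gene of 15 tested (lipid droplet and lipolysis, *PLIN2*), 1 of 20 (fatty acid uptake, *ACSL3*) and 1 of 29 (glycerolipid synthesis, *AQP3*), beside 0.281% of all tested genes, and *GDE1* is in none. Beside *PLIN2*, they were *ACSL3*, an acyl-CoA synthetase that works at lipid droplets and the endoplasmic reticulum, with -0.44 ± 0.09 (SE, adjusted p = 0.0452), *AQP3*, a channel for water and glycerol, with -1.13 ± 0.22 (SE, adjusted p = 0.0411), and *GDE1*, a glycerophosphodiester phosphodiesterase, with -0.65 ± 0.13 (SE, adjusted p = 0.0447). *ACSL3* averaged 177, 345, 142 and 204 CPM in vehicle, RGZ, T0070907 and the combination and *AQP3* 5.88, 19.2, 4.92 and 7.27 CPM. RGZ raised these 4 genes in both settings, since the RGZ effect with T0070907 was 0.51 for *ACSL3* (adjusted p = 0.000134), 0.57 for *AQP3* (adjusted p = 0.0387), 0.64 for *GDE1* (adjusted p = 0.000617) and 1.52 for *PLIN2* (adjusted p = 6.49e-06). The sialyltransferases *ST3GAL5* and *ST8SIA4*, which act on glycolipids and on the polysialic acid of glycoproteins, were called in the positive direction with 0.70 ± 0.14 (SE, adjusted p = 0.0452) and 0.74 ± 0.15 (SE, adjusted p = 0.0452).

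Ligands and regulators of signalling completed the group. *PDGFB*, a platelet-derived growth factor chain, averaged 6.19, 1.94, 6.26 and 5.51 CPM in the same order and was the only one called of 24 tested genes of the EGF family and receptor kinases (background 0.281%), of which 5 had an unadjusted p under 0.05 (background 9.79%). *JAG1*, a Notch ligand, had -0.96 ± 0.18 (SE, adjusted p = 0.0348), averaging 15.9, 32.3, 13.6 and 14.03 CPM. The transcription factors *FOSL2*, an AP-1 subunit, and *IRF1*, of the interferon response, had -0.56 ± 0.11 (SE, adjusted p = 0.0452) and -0.66 ± 0.13 (SE, adjusted p = 0.0452). *IRF1* was the only one called of 23 tested interferon response genes, of which 7 had an unadjusted p under 0.05, and *FOSL2* belongs to none of the lists. Of 18 tested targets of YAP and TAZ, *ANKRD1* was called with a positive difference and *AMOTL2*, an angiomotin family scaffold, with a negative one of -0.42 ± 0.08 (SE, adjusted p = 0.0452), so the called targets had opposite signs. An unadjusted p under 0.05 was found in 7 of the 18, and the list's median difference was -0.01. *ARHGAP18* and *ARHGAP26*, which encode GTPase-activating proteins, likewise had opposite signs, 0.58 ± 0.11 (SE, adjusted p = 0.0374) and -0.63 ± 0.13 (SE, adjusted p = 0.0453). The last were *CD55*, which protects cells from complement, with -0.58 ± 0.12 (SE, adjusted p = 0.0452), and *FRMD3*, a FERM domain protein, with -0.99 ± 0.19 (SE, adjusted p = 0.0374). *FRMD3* averaged 9.699, 15.4, 14.2 and 11.4 CPM in vehicle, RGZ, T0070907 and the combination. Its RGZ effect without T0070907 was 0.68 (adjusted p = 0.00251) and its T0070907 effect without RGZ 0.55 (adjusted p = 0.0684).

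The difference was also positive or negative in the same sense on a linear scale. For all 38 genes the difference of CPM averaged over experiments kept its sign, and for 37 it kept it in all 3 experiments, the exception being *EFEMP1* with 13.7 and 15.2 CPM in experiments 1 and 2 and -0.713 CPM in experiment 3. The linear difference also had 1 sign in all 3 experiments in 36 of the 58 larger additive genes described next, so 1 sign on that scale is not particular to the called genes.

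Additivity was judged on genes with an RGZ effect to begin with. The RGZ effect averaged over cells with and without T0070907 was called in 3052 genes (22.6%), upward in 1553 (11.5%) and downward in 1499 (11.1%). Without the block for the experiment the same test called 344 genes. With single libraries left out it called 1703 to 4421 genes, and the count fell by over 1.5 times without the vehicle libraries of experiments 1 and 3 (1886 and 1703), the RGZ library of experiment 2 (1814), the T0070907 libraries of experiments 1 and 2 (1933 and 1850) or the combination library of experiment 3 (1993). Of these, 1975 genes (14.6% of all tested) were additive, in that the difference was not called and its 95% interval from limma-voom lay within ± 0.5 on the log2 scale, 1156 with a rise and 819 with a fall. Another 1042 genes (7.71% of all tested) were unresolved, with an interval reaching beyond that bound. In 363 of these the interval left out 0 although edgeR did not call the difference. In 18 it lay wholly beyond the bound. Most additive effects were smaller than the bound, with a median of 0.20 in size, so that for them the interval would also admit a difference as large as the effect. Among the 547 genes with an average RGZ effect of at least 0.5 in size, 58 were additive, 26 were dependent and 463 unresolved. A stricter rule, an interval within 0.5 of the size of the gene's own RGZ effect, was met by 14 genes, and both restrictions were chosen after the data had been seen. The interval of 121 of the 1975 additive genes, and of 8 of the 58, lay within the bound but left out 0, so that additive here means a difference smaller than the bound and not an equal effect. The number of additive genes was also sensitive to single libraries and ranged from 891 to 2726 when each was left out in turn, with falls of over 1.5 times without the 6 libraries just named (973, 891, 990, 1087, 1013 and 1051) and without the RGZ library of experiment 3 (1282).

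**Figure D4:**
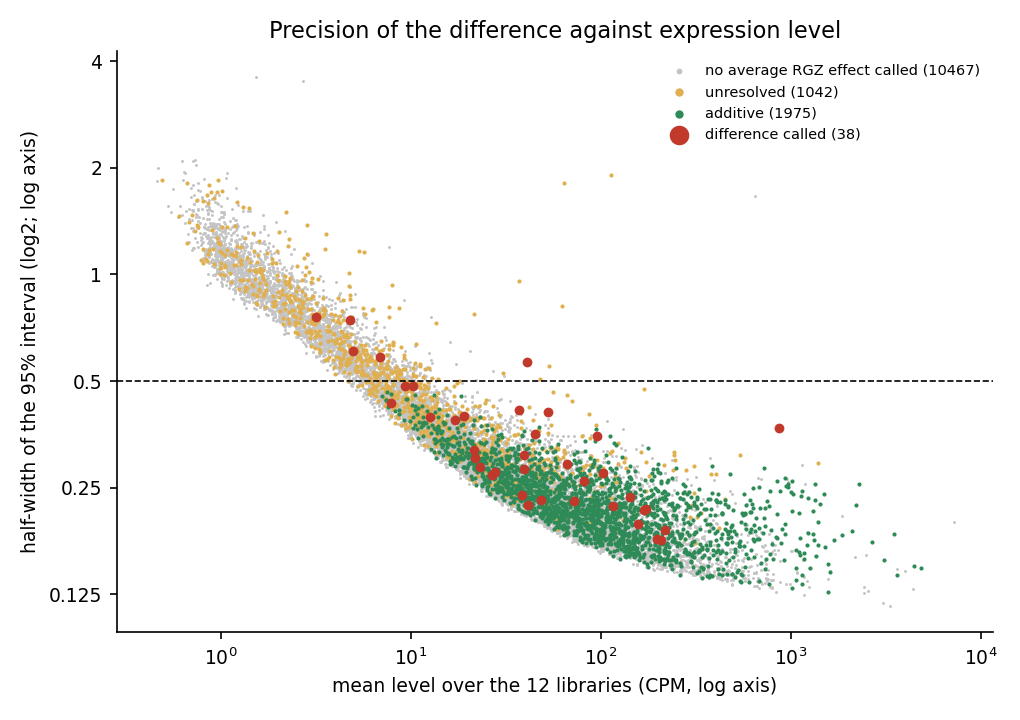
Half-width of the 95% limma-voom interval of the difference (y axis, log2 units on a log axis) against the mean level over the 12 libraries (x axis, CPM on a log axis), 1 point per tested gene. The dashed line marks the bound of 0.5, and additive genes (green) have a median level of 83.1 CPM against 9.97 CPM for the unresolved genes (yellow).

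The 58 larger additive genes were 39 with a rise and 19 with a fall. RGZ was called both without and with T0070907 in all 58 (background 9.30% and 8.76%). These genes were chosen for a called average RGZ effect of at least 0.5 in size and a bounded difference, so nothing is read from that count. T0070907 without RGZ was called in 30 (background 0.910%). Of the 6 additive genes with the largest rise, 3 encode fatty acid oxidation enzymes. This grouping was made after their values were seen, and *ECH1* is not in the beta-oxidation list used further on. *ECH1*, an enoyl-CoA isomerase of peroxisomes and mitochondria, was at 104, 144 and 141 CPM in vehicle, 202, 258 and 260.2 CPM in RGZ, 74.3, 79.04 and 87.1 CPM in T0070907, and 129, 138 and 169 CPM in the combination in experiments 1, 2 and 3. RGZ libraries were highest and T0070907 libraries lowest, and the combination overlapped vehicle. RGZ raised *ECH1* by 0.89 without and by 0.86 with T0070907, and the difference had an interval from -0.25 to 0.18. *ACAA2*, the mitochondrial thiolase, was at 36.4, 38.1 and 36.7 CPM in vehicle, 57.5, 73.3 and 67.2 CPM in RGZ, 22.2, 23.7 and 22.1 CPM in T0070907, and 38.05, 38.2 and 44.7 CPM in the combination. The order of the conditions was as in *ECH1*, with RGZ effects of 0.83 and 0.83 and an interval from -0.26 to 0.27. *CPT1A*, which admits long-chain fatty acids to mitochondria as acylcarnitines, was at 60.5, 57.00 and 69.5 CPM in vehicle, 103, 104 and 113 CPM in RGZ, 33.7, 39.6 and 35.5 CPM in T0070907, and 47.2, 59.00 and 65.9 CPM in the combination. Again the T0070907 libraries were lowest and RGZ highest, the RGZ effects were 0.78 and 0.66, and the interval of the difference ran from -0.38 to 0.14.

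The other additive genes with the largest rise were *KRT7*, a simple epithelial keratin, *HR*, a nuclear receptor corepressor, and *PRSS12*, the serine protease neurotrypsin. *KRT7* was at 21.3, 46.05 and 17.3 CPM in vehicle, 39.5, 80.03 and 36.9 CPM in RGZ, 13.1, 26.6 and 9.65 CPM in T0070907, and 26.2, 47.2 and 24.1 CPM in the combination. Experiment 2 was high in every condition, and within each experiment RGZ was highest and T0070907 lowest, with RGZ effects of 0.91 without and 1.02 with T0070907. *HR* averaged 131, 234, 79.9 and 134 CPM in vehicle, RGZ, T0070907 and the combination, with RGZ effects of 0.84 and 0.72. *PRSS12* averaged 17.96, 31.2, 12.6 and 20.7 CPM, with RGZ effects of 0.79 and 0.72.

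Of the additive genes with the largest fall, *TXNIP*, which inhibits thioredoxin and limits glucose uptake, came first. It was at 23.2, 21.9 and 15.8 CPM in vehicle, 11.5, 13.1 and 7.82 CPM in RGZ, 26.9, 25.3 and 20.4 CPM in T0070907, and 15.8, 16.7 and 10.9 CPM in the combination. RGZ libraries were below vehicle and below T0070907, and the combination overlapped vehicle and RGZ. The RGZ effect on *TXNIP* was -0.91 (adjusted p = 1.49e-05) without and -0.75 (adjusted p = 0.000216) with T0070907, and T0070907 raised it by 0.26 (adjusted p = 0.295) without and by 0.43 (adjusted p = 0.0196) with RGZ. In the edgeR fit without the block for the experiment, the adjusted p of the RGZ effect was 0.0875 without and 0.261 with T0070907. The difference was 0.16 ± 0.15 (SE, adjusted p = 0.759), with an interval from -0.13 to 0.48, which leaves room for the effect with T0070907 to be weaker by up to the upper limit. *NIBAN1*, a regulator of the stress response of translation, was at 87.2, 53.3 and 72.6 CPM in vehicle, 56.3, 39.3 and 46.99 CPM in RGZ, 101, 70.8 and 87.97 CPM in T0070907, and 65.7, 47.2 and 59.04 CPM in the combination. Within each experiment RGZ was lowest and T0070907 highest, and the RGZ effects were -0.57 and -0.59 with an interval from -0.21 to 0.17. Also additive were *HMCN1*, the matrix protein hemicentin, with RGZ effects of -0.79 and -0.73, *FREM2*, a basement membrane protein, with -0.76 and -0.76, *LIFR*, the receptor of leukemia inhibitory factor, with -0.76 and -0.68, and *ANK3*, an ankyrin of the membrane skeleton, with -0.69 and -0.62. The experiments varied most in *FREM2*, whose difference was 0.57 in experiment 2 and -0.27 and -0.16 in the others.

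The 14 genes that met the stricter rule, 13 rising and 1 falling, held the tightest statements of additivity. The most abundant of them was *SERPINE2*, an inhibitor of serine proteases, at 2365, 2619.6 and 3398 CPM in vehicle, 3759.7, 4009 and 5547 CPM in RGZ, 1780.2, 1826 and 2643 CPM in T0070907, and 2325, 2730.3 and 4080.2 CPM in the combination. In each experiment its order was RGZ, then vehicle or combination, then T0070907, and the RGZ effects were 0.66 and 0.53. *ACADVL*, the very long chain acyl-CoA dehydrogenase, averaged 515, 729, 376 and 532 CPM in vehicle, RGZ, T0070907 and the combination, and its interval ran from -0.18 to 0.18 around RGZ effects of 0.50 and 0.50. *ANXA1*, a phospholipid-binding annexin, averaged 1529, 2052, 1193 and 1621 CPM, with RGZ effects of 0.42 and 0.43. *COTL1*, a coactosin that binds actin, averaged 787, 1306, 583 and 877 CPM, with 0.73 and 0.59. The rule also took 3 strongly responding genes whose intervals were too wide for the fixed bound, namely the cytokine *IL1A* (RGZ effects 2.33 and 2.37), the trefoil factor *TFF2* (2.21 and 2.46) and the transporter *ABCC3* (1.14 and 1.29). *TFF2* averaged 4.45, 20.6, 0.871 and 4.94 CPM in the same order, and the interval of its difference ran from -0.49 to 1.02. The others of the 14 were *HR*, *KRT7*, *ECH1*, *S100A2*, *NIBAN1*, *AMIGO2* and *ACAA2*.

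By function, no gene of the carnitine shuttle and beta-oxidation was called by edgeR among 29 tested, where 0.281% of all genes were called, and 3 of them had an unadjusted p under 0.05. Their average RGZ effect rose in 16 (background 11.5%) and fell in 0 (background 11.1%), 14 were additive (background 14.6%) and 2 unresolved (background 7.71%), and the median difference was 0.000936, beside 0.01 over all tested genes. The additive members included the electron transfer flavoprotein subunits *ETFA* (0.67 without and 0.47 with T0070907, with an interval of the difference from -0.38 to -0.03 that leaves out 0), *ETFB* (0.34 and 0.44) and *ETFDH* (0.42 and 0.29). Unresolved was the carnitine carrier *SLC25A20*, with 0.94 and 0.51 and a difference of -0.43 ± 0.12 (SE, adjusted p = 0.1596). In the trifunctional protein subunit *HADHA*, counted as additive, the RGZ effects were 0.24 and 0.03, an example of a small effect for which the bound says little.

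In the list of PPAR targets, 1 of 21 tested genes was called (*PLIN2*; background 0.281%), 7 were additive (background 14.6%) and 9 unresolved (background 7.71%). Their average RGZ effect rose in 17 (background 11.5%) and fell in 0 (background 11.1%), an unadjusted p under 0.05 for the difference was found in 5 (background 9.79%), and the median difference was -0.22, beside 0.01 over all genes. Of the named targets, the oxidation genes *CPT1A*, *ACAA2* and *ACADVL* were additive, while several storage and secreted genes were unresolved. Among the latter *FABP4*, the adipocyte fatty acid-binding protein, went almost from off to on, at 0.114, 0.119 and 0.118 CPM in vehicle, 197, 401 and 167 CPM in RGZ, 0.116, 0.269 and 0 CPM in T0070907, and 1.11, 0.947 and 2.68 CPM in the combination. The RGZ libraries stood far above all others and the combination libraries above vehicle and T0070907. On a linear scale, the difference of the RGZ effect with minus without T0070907 was -196, -400.3 and -164 CPM in *FABP4* in the 3 experiments. Its fitted difference of -7.38 depends on the prior count, because vehicle and T0070907 hold 3 counts or fewer per library, and it passed the threshold by limma-voom (adjusted p = 0.00139), by DESeq2 (adjusted p = 0.00173) and by edgeR with no filter on low counts (adjusted p = 0.00317), but not by edgeR with the filter (adjusted p = 0.173). Its limma-voom interval from -8.93 to -5.31 lay wholly beyond the bound. *ANGPTL4*, an inhibitor of lipoprotein lipase, was at 3.41, 5.24 and 8.35 CPM in vehicle, 384, 451 and 449 CPM in RGZ, 0.578, 0.358 and 0.948 CPM in T0070907, and 5.68, 10.8 and 41.6 CPM in the combination, and its difference was -3.83, -2.10 and -0.54 in the experiments (adjusted p = 0.741). *PLIN4*, another lipid droplet protein, was at 4.996, 10.1 and 6.94 CPM in vehicle, 104, 191 and 90.5 CPM in RGZ, 1.39, 1.701 and 1.03 CPM in T0070907, and 5.56, 13.6 and 16.3 CPM in the combination, with -2.47, -1.36 and 0.06 (adjusted p = 0.569) and a limma-voom interval that left out 0. In both genes the combination library of experiment 3 was the highest of its group, and the experiments spanned a wider range than the size of their mean. The pyruvate dehydrogenase kinase *PDK4* averaged 9.51, 62.7, 2.76 and 11.5 CPM in vehicle, RGZ, T0070907 and the combination and was likewise unresolved, with a difference of -0.68 ± 0.38 (SE, adjusted p = 0.574).

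At a mean level of at least 5 CPM, the largest unresolved falls were *PDE4B*, a cyclic AMP phosphodiesterase, with RGZ effects of -1.26 and -0.91, *FOXD3*, a neural crest transcription factor, with -1.60 and -0.37, and the gene with the NCBI number 643314, with -0.60 and -1.44. The difference in *FOXD3* was 1.22 ± 0.28 (SE, adjusted p = 0.0904), with a limma-voom interval from 0.63 to 1.80. It was spread over 1.93, 0.02 and 1.03 in the experiments. The genes with the largest called effects of T0070907 alone were unresolved as well. *UNC5C*, a netrin receptor, averaged 2.34, 0.311, 6.51 and 1.91 CPM in the 4 conditions, with at most 5 counts in each RGZ library. T0070907 raised it and RGZ lowered it in both settings. *IL1B*, a cytokine, was at 0.681, 9.52 and 0.706 CPM in vehicle, 6.13, 30.7 and 6.29 CPM in RGZ, 0, 0.985 and 0.0862 CPM in T0070907, and 1.48, 9.15 and 2.25 CPM in the combination. Experiment 2 was the highest in *IL1B* in every condition, and T0070907 held at most 1 count in the other experiments. In the same order of conditions *OLAH*, a fatty acid thioesterase, averaged 0.744, 2.22, 0.0672 and 0.589 CPM, *BMX*, a cytoplasmic tyrosine kinase, 1.71, 0.388, 3.86 and 2.08 CPM, and *CD200*, a surface ligand, 0.894, 0.521, 2.16 and 0.968 CPM.

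In other lists the counts are read beside 11.5% of all tested genes with an average RGZ rise, 14.6% additive and 0.281% called, a share at which lists of this size would hold few or no called genes. Of 32 tested cytosolic ribosomal protein genes, 25 had an average RGZ effect, all 25 upward and additive by the fixed bound, with a median average effect of 0.19 and a median difference of 0.12, the differences running from 0.03 to 0.23. The median RGZ effect of this list was 0.13 without and 0.23 with T0070907, so the effect was small in both settings. Of 23 tested sterol synthesis genes 8 rose and were additive, for example *FDFT1* (0.35 without and 0.24 with T0070907). Of 31 tested genes of the respiratory chain 11 rose and were additive, and of 23 tested glycolysis genes 9 were additive. Of 24 tested mitosis genes 7 were additive, 1 with a rise and 6 with a fall, and the median difference of that list was 0.01. Of 19 tested hypoxia response genes, the average RGZ effect was called by edgeR in 0 and the difference had an unadjusted p under 0.05 in 1, *EGLN3*, a prolyl hydroxylase, with 1.22 ± 0.48 (SE, adjusted p = 0.409). The lists in which unresolved genes outnumbered additive ones by most were those of NF-kB, cytokines and chemokines (12 unresolved and 3 additive of 27 tested), fatty acid uptake, binding and activation (8 and 3 of 20), adipogenic transcription factors (7 and 3 of 21) and integrins (7 and 1 of 17).

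**Figure D5:**
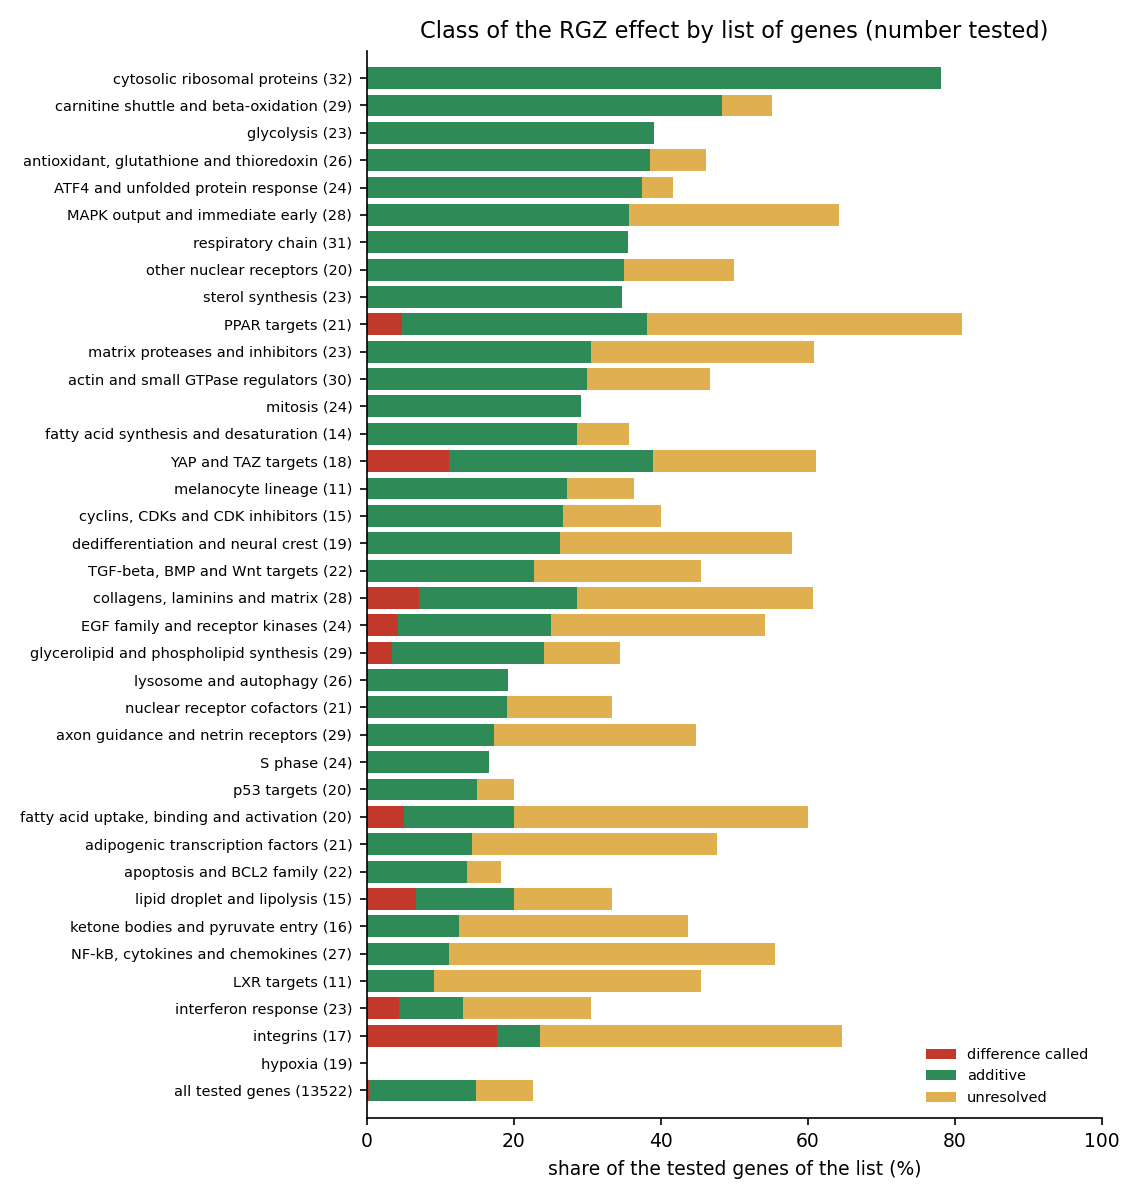
Share of the tested genes of each list (x axis, percent; number tested in brackets) with a called difference (red), additive (green) or unresolved (yellow); the rest had no called average RGZ effect. The integrin list has 3 called genes of 17 and the beta-oxidation list 14 additive genes of 29, beside 38 and 1975 of all 13522.

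The receptor gene itself, *PPARG*, was at 79.1, 89.96 and 77.4 CPM in vehicle, 69.2, 77.6 and 69.5 CPM in RGZ, 82.9, 87.5 and 75.4 CPM in T0070907, and 81.2, 95.6 and 73.1 CPM in the combination. The ranges of the 4 conditions overlapped, the average RGZ effect was not called (-0.08, adjusted p = 0.196), and the difference was 0.21 ± 0.09 (SE, adjusted p = 0.474). Of the house-keeping genes, *YWHAZ* had a difference of 0.06 ± 0.07 (SE, adjusted p = 0.804) and *B2M* one of 0.05 ± 0.08 (SE, adjusted p = 0.867). The average RGZ effect was called by edgeR in 4 of 9 tested house-keeping genes, all upward (background 11.5%). Among them was *B2M* with 0.16 (adjusted p = 0.00932).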

How the data were processed

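RNA of A375 cells in 4 conditions and 3 experiments was sequenced from TruSeq libraries on a HiSeq 2000. The authors deposited raw counts per gene, as whole numbers without normalization, made on hg19 per the labels' processing notes. The aligner and the counter are not given in the sources used here. The table held 0 columns of other samples. Rows carried NCBI gene numbers, of which 23538 of 23705 matched a RefSeq symbol. Groups and experiment numbers came from the sample titles. Totals of 8319455 to 11375227 counts put the floor of 3 counts at 0.258 to 0.371 CPM, which covers counting error only.

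The fit used edgeR 4.0.16 in R 4.3.3 (TMM, filterByExpr, quasi-likelihood test). The model held the 4 conditions and the experiment as a replicate block and used all 12 libraries. It gave the interaction, the average RGZ effect and the effect of each compound with and without the other. The SE was taken as the absolute log2 change over the root of the F value. Intervals came from limma-voom (limma 3.58.1) with the same block. Adjusted p-values are Benjamini-Hochberg over 13522 genes. Additive genes had a called average RGZ effect, no called interaction and a 95% interval within ± 0.5, and other genes with a called average RGZ effect and no called interaction were unresolved. The average RGZ effect and the interaction are orthogonal contrasts of the same libraries. Levels are TMM-scaled CPM, and differences per experiment use log2 CPM with a prior count of 2. The scripts were tested on simulated data.

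The numbers pair the libraries because they mark the 3 independent experiments. After subtraction of condition means, the 18 pairs of libraries of the same experiment correlated at 0.554 on average over genes (0.0793 to 0.758). Other pairs were at -0.27, which adds nothing, since deviations from a condition mean cancel out over its libraries. The common dispersion was 0.00333 with the block and 0.0193 without it. Replicates differed by more than sampling noise, with a chi-square of at least 5.28 per gene.

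Named were the genes called for the interaction, with every library for the 8 smallest p in each direction except 1 that is not reported here, the 6 additive genes with the largest rise and the 6 with the largest fall at a mean of at least 5 CPM, the 3 largest unresolved effects in each direction, the 3 genes in each direction with the largest called effect of T0070907 alone, the genes the study names, and members of lists. Members and lists were chosen with earlier results of these data known. Other genes, such as those of the stricter additive rule, were chosen after their values were seen. Alternatives were no replicate block, DESeq2 1.42.0 and its size factors, limma-voom, other filters, a robust fit, thinning, other thresholds and bounds, and leaving out each library or experiment.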

Additional observations from a re-analysis of the deposited data

Results flagged for a closer look

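The effect of RGZ differed between cells without and with T0070907, by the test of the difference itself, in 38 genes, with a positive difference in 15 and a negative one in 23. Groups of 3 libraries were not searched for single outlying libraries. The positive differences (log2, effect with minus effect without T0070907) were *LOXL4* 0.75, *RAB26* 1.10, *ANKRD1* 0.75, *IL17RD* 1.19, *OLFML2A* 1.01, *FZD2* 0.58 and *PLK2* 0.56. Further positive differences were *ARHGAP18* 0.58, *EFEMP1* 0.77, *ITGB4* 0.54, *ST3GAL5* 0.70, *ST8SIA4* 0.74, *MGP* 1.59 and *PDGFB* 1.45. The negative differences were *LAMA4* -1.05, *PLIN2* -1.10, *FERMT1* -0.84, *COL6A1* -0.65, *PODXL* -0.59, *UBE2QL1* -2.03, *PTGES* -1.44 and *TSC22D1* -0.51, followed by *JAG1* -0.96, *FRMD3* -0.99, *ITGB7* -1.44, *AQP3* -1.13, *GDE1* -0.65, *ITGA2* -0.97, *FOSL2* -0.56 and *CD55* -0.58. The remaining negative differences were *ACSL3* -0.44, *IRF1* -0.66, *TFPI2* -0.93, *AMOTL2* -0.42, *ARHGAP26* -0.63, *SERINC2* -0.50 and *KIAA0040* -0.78. Their adjusted p ranged from 0.000594 to 0.0473 in the fit with the replicate block and was 0.999841 for every gene without it, where the unadjusted p of these genes ran from 0.000348 to 0.642.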

How the results depend on the processing

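The sign of the difference was kept by all 38 genes in every alternative that was run, and the calls were not. Every alternative reused libraries that had chosen the genes, so nothing is read from the kept sign. The 38 genes called, 15 positive and 23 negative, became 0, 0 and 0 without the replicate block in edgeR and in limma-voom, 21 with limma-voom and the block (11 negative), 150 with no filter on low counts (62 and 88), and 1, *LOXL4*, at an adjusted p under 0.01 (1 and 0). Of the 38, 38 were shared with the unfiltered fit, 32 with the 47 genes of DESeq2, 20 with limma-voom and 25 with the 27 genes of the thinned libraries. Without each library or experiment in turn the counts were 1 to 149 genes, 1 to 65 positive with libraries and 0 to 10 with experiments left out, and 0 to 84 negative. The average RGZ effect was called in 3052 genes with the block, in 344 and 337 without it in edgeR and limma-voom, in 1317 at an adjusted p under 0.01, and in 563 to 4421 with a library or experiment left out. Additive genes numbered 777 with a bound of 0.3, 14 under the stricter rule, 58 with an average effect of at least 0.5, both chosen after seeing the data, and 891 to 2726 with a library left out. All of these counts use intervals from the fit with the block, and the count without it is not given here. With the replicate block the dispersion is smaller, and the cause of the other shifts was not tested. The half-width of the interval of the difference had a median of 0.29 over all genes, and additive genes were not counted at other depths.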
